A study of Mus musculus with 2 samples.

Results

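Early T progenitors with high Tcf7 were 172 barcodes of a single-cell RNA-seq table of the embryonic mouse thymus, out of 6057 barcodes in all and 5187 that passed the cell filters. Tcf7 encodes TCF-1, a transcription factor that Notch signalling induces in thymic progenitors. The table comes from DN1 cells, the double-negative 1 fraction of the thymus that holds the earliest progenitors together with innate lymphoid cells. They were sorted from the 5x polychromILC strain, which carries reporters at lineage-factor loci, at 2 embryonic stages, 1 library for E15.5_DN1 and another for E19.5_DN1. All groups share the reporter alleles, and no other treatment or genotype is given. The barcodes carry 2 suffixes, called sets 1 and 2 here (2182 and 3875 barcodes), and 0 columns are tied to a stage by a label. Stages were therefore not compared, all barcodes count as 1 pooled sample, and values of both sets are given side by side. No set has a replicate, so no test was run, and the intervals (95%) cover counting error only.

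Members were chosen from their own UMIs (unique molecular identifiers, the counts of captured transcripts). A barcode needed at least 500 genes, at most 10% mitochondrial UMIs and at most 1 UMI of the epithelial genes Krt8, Krt18 and Prss16. It needed at least 350 CPM (UMIs scaled to a common total per barcode or class) summed over the progenitor genes Spi1, Bcl11a, Lyl1, Mef2c and Cd34. Cd3g, a chain of the T-cell receptor complex, had to be under 400 CPM. Fewer than 3 UMIs of the mast cell genes Gata2, Ms4a2 and Fcer1a, fewer than 3 of Mpo, and at most 1 of the innate genes Zbtb16, Rora and Icos were allowed. This progenitor gate held 316 barcodes, of which those with Tcf7 at or above 150 CPM are the members and the other 144 are called Tcf7-low. Levels of all these genes are descriptions of the choice and not results.

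A thymic progenitor arrives with stem and progenitor regulators on and meets Notch ligands on the thymic epithelium. Notch signalling then turns on Tcf7 and Gata3, after which Il2ra and Bcl11b mark passage to the DN2 stage and T-lineage commitment while progenitor factors such as PU.1 (Spi1) are shut down. The cells compared here sit along that path as far as their transcripts place them, and no order in time was measured.

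Tcf7-high barcodes were 54.4% of the progenitor gate (interval 48.8 to 60.0%), 75 of 126 in set 1 (59.5%) and 97 of 190 in set 2 (51.1%). Tcf7 in members ran from 150 to 1799 CPM, with medians of 324 CPM in set 1 and 296 CPM in set 2. Just inside the threshold, 36 members lay between 150 and 198 CPM (median 175), and just outside it 26 Tcf7-low barcodes lay between 102 and 148 CPM (median 127). The level rested on a median of 7 Tcf7 UMIs per member (range 1 to 30), and 6 members passed with 1 UMI. Among progenitors set aside for Mpo, which is a myeloid granule enzyme, 242 of 618 (39.2%) also reached 150 CPM of Tcf7, and among those set aside for innate genes 42 of 62 (67.7%) did. A further 8 barcodes met every limit but the epithelial one.

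**Figure D1:**
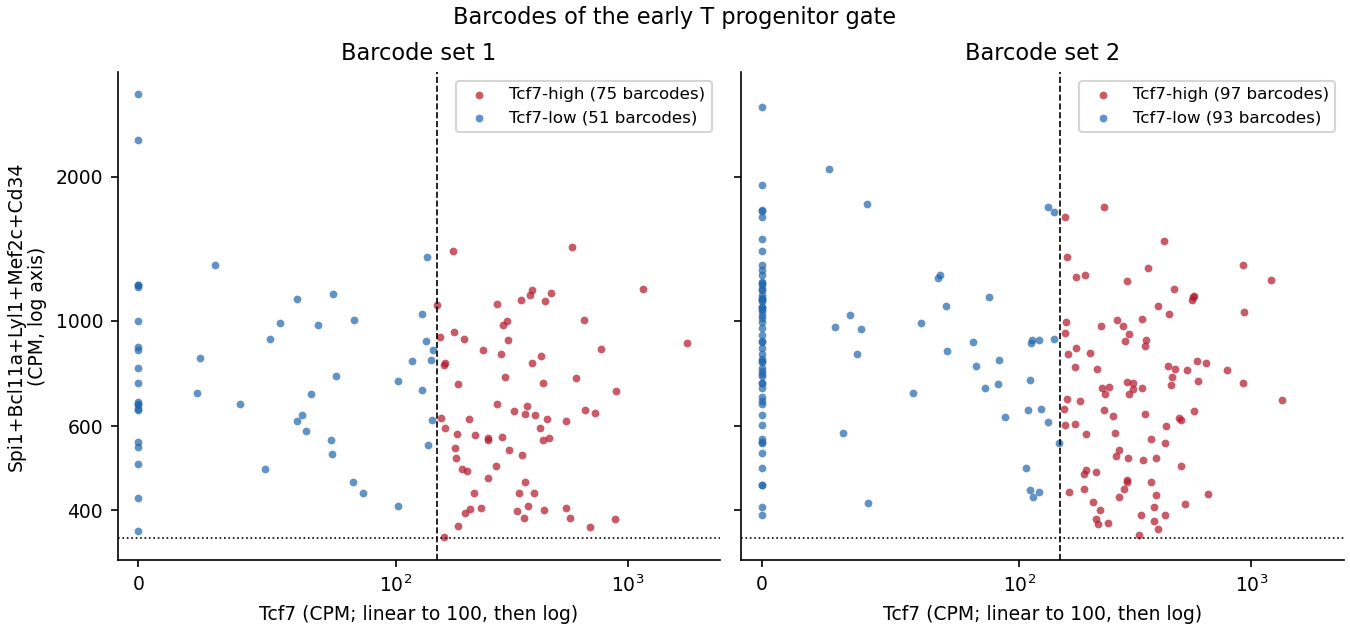
Tcf7 (x, CPM, linear to 100 and logarithmic above) against the summed progenitor genes Spi1, Bcl11a, Lyl1, Mef2c and Cd34 (y, CPM, log axis) for each barcode of the progenitor gate, by barcode set. The dashed line is the 150 CPM threshold and the dotted line the 350 CPM gate, and many Tcf7-low barcodes sit at 0 while the 172 members spread from 150 to 1799 CPM.

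Median depth was alike in both classes. Members had medians of 24523 UMIs in set 1 and 22461 in set 2 (range 858 to 66986), and Tcf7-low barcodes 21838 and 22713. Shallow barcodes were more frequent in the Tcf7-low class, with 35 of 144 under 5000 UMIs against 10 of 172 members. A doublet caller marked 1 member and 3 Tcf7-low barcodes. Between the sets, 25 barcode sequences recurred, 2 of them in members and 0 with both copies members.

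The labelled cell type was checked against its markers. Spi1 stood at 138 CPM in set 1 and 150 CPM in set 2, and Bcl11a at 125 and 155 CPM, both gate genes. Notch1, the receptor that starts the T-cell programme and the 1 given marker outside the rule, stood at 119 CPM in set 1 and 179 CPM in set 2, with a UMI in 63 and 88 members. Kit, the stem cell factor receptor of early thymic progenitors, stood at 78.5 and 107 CPM. Flt3 and Ccr9, which mark the earliest thymic immigrants, were nearly silent in members, with Flt3 at 1.08 and 6.08 CPM (2 and 14 UMIs) and Ccr9 at 1.08 and 5.21 CPM. Lists of markers of other lineages were not at 0 as a whole, and their summed levels in the sets of members were 757 and 623 CPM for erythroid, 315 and 431 CPM for dendritic and 302 and 280 CPM for ILC2 markers. Myeloid genes, which progenitors also express, summed to 5007 and 5730 CPM. Defining genes of these lists at 0 in members included Elane and Cebpa (myeloid), Siglech, Zbtb46, Xcr1, Clec9a, Cd209a and H2-Aa (dendritic), Il5, Areg, Calca and Nmur1 (ILC2) and Hba-x, Alas2, Slc4a1 and Epor (erythroid). Of the markers that the rule did not use, Notch1 and Kit were thus present and Flt3 and Ccr9 nearly absent. The other such markers, named further below, were Hhex and Hes1, also present, and Lmo2, which was low.

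Against Tcf7-low barcodes of the same gate, the members had more transcript of a few T-lineage genes outside the rule, among them Bcl11b, Il2ra and Il7r, and less of Hmga2, Egfl7 and Hoxa7, while most genes of the same lists were not called. A gene outside the rule and the mitochondrial genome was measured with at least 50 UMIs over both classes in each set, and called where it passed 1.5-fold in the same direction in both sets. Of 5720 genes measured, 51 were called higher (0.892%) and 26 lower (0.455%), and the median gene differed by 0.01 on the log2 scale. Over all measured genes 54.6% had the same sign in both sets, so most of the table did not separate the classes. The calls came from the same barcodes that were split on Tcf7, so they describe this split and are no test of it. Some genes, Bcl11b among them, reached 50 UMIs only through the class where they were high.

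**Figure D2:**
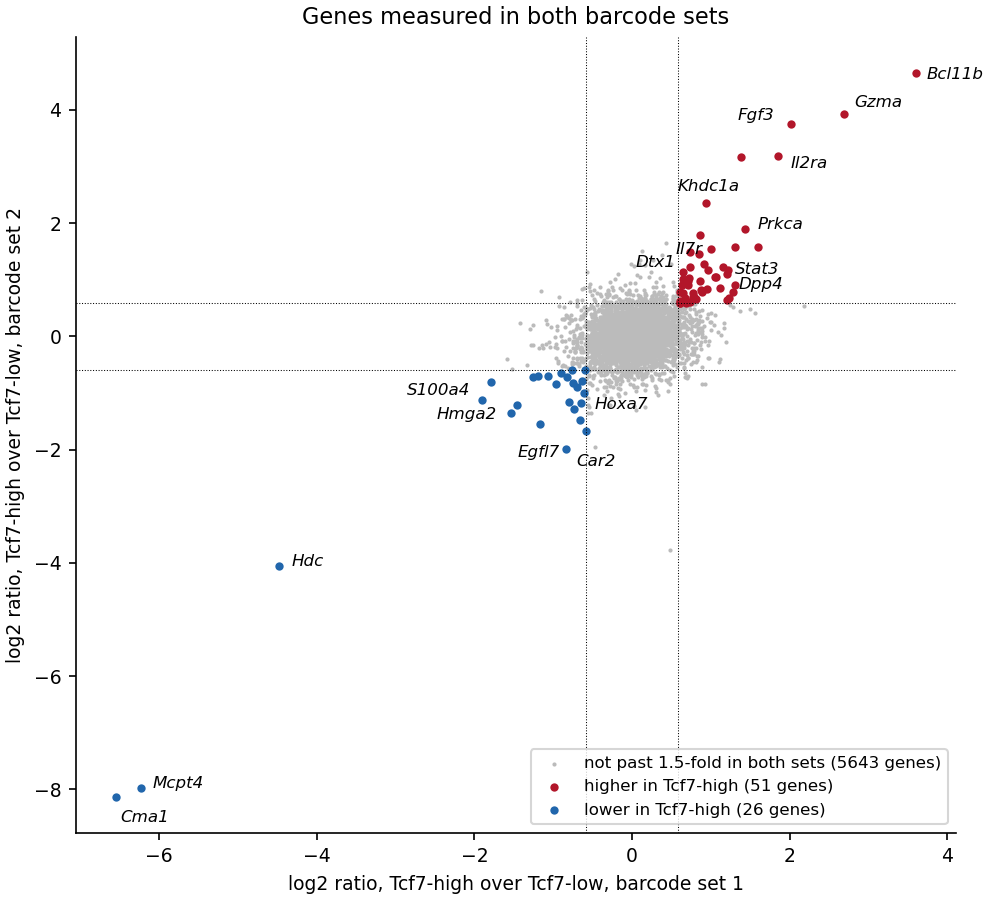
Log2 ratio of CPM, Tcf7-high over Tcf7-low progenitors, in barcode set 1 (x) and set 2 (y) for each measured gene outside the rule, with dotted lines at 1.5-fold. The 51 genes called higher include Bcl11b, Gzma, Fgf3 and Il2ra at the upper right, and the 26 called lower end in Hdc, Mcpt4 and Cma1, of which the last 2 had 0 UMIs in members and are drawn at a floor of 3 counts per set.

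Among T-lineage regulators, 1 of 14 measured was called higher and 0 lower. That gene was Bcl11b (chr12:107910403-108003602), the commitment factor that later shuts off other fates. It stood at 31.7 CPM in set 1 and 24.3 CPM in set 2 of the members, against 2.61 and 0.968 CPM in Tcf7-low barcodes. Both member values lay above both Tcf7-low values, with log2 ratios of 3.61 (1.99 to 5.92) and 4.65 (2.73 to 7.73). The transcript was in few cells: 17 members of set 1 and 11 of set 2 had a UMI, and the top cell gave 20.3% and 28.6% of them. With per-cell CPM averaged in place of summed UMIs the mean log2 ratio came to 0.95 instead of 4.13.

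The median log2 ratio of all 14 T-lineage regulators, Bcl11b included, was 0.40 (0.27 in set 1 and 0.51 in set 2), beside 0.01 for all genes, and it stayed between 0.24 and 0.46 under the 14 alternatives run. Gata3, the other early Notch-dependent T-cell factor, stood at 51.1 and 33.5 CPM in members against 35.6 and 20.3 CPM. Myb stood at 317 and 335 CPM against 222 and 227 CPM, and Runx1, a partner of these factors, at 196 and 269 CPM against 169 and 182 CPM. Gata3, Myb, Runx1, Tcf12, Tcf3 and Gfi1 were each above the Tcf7-low level in both sets, short of the call. Ikzf1 and Cbfb were slightly below it in both sets, at mean log2 ratios of -0.10 and -0.08.

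In the Notch pathway, 2 of 13 measured genes were called higher and 0 lower, and the median was 0.11 (-0.01 in set 1 and 0.28 in set 2). Il2ra (chr2:11642807-11693193), the IL-2 receptor alpha chain CD25 that marks the DN2 stage, led the group. It stood at 113 CPM in set 1 and 132 CPM in set 2 of the members, against 31.3 and 14.5 CPM in Tcf7-low barcodes. The log2 ratios were 1.85 (1.34 to 2.40) and 3.19 (2.64 to 3.78), and the mean over sets ranged from 1.04 to 3.02 under the alternatives. Il2ra and Bcl11b are also markers of ILC2, group 2 innate lymphoid cells, where they were the 2 of 5 measured genes called higher, with 0 lower and a median of 0.62. That list summed to 302 and 280 CPM in members against 195 and 132 CPM in Tcf7-low barcodes, and its part in the result was not tested. Dtx1, a Notch target, stood at 36.0 and 16.9 CPM against 21.7 and 7.26 CPM (mean log2 0.98, from 0.05 to 1.31 under the alternatives). The receptor Notch1 was not called, at 119 and 179 CPM against 120 and 147 CPM. Hes1, the classical Notch target, lay on opposite sides in the sets, with log2 ratios of -0.22 and 1.01. Nrarp, a feedback inhibitor of Notch, had ratios of 0.13 (-0.35 to 0.61) in set 1 and 1.504 (0.84 to 2.22) in set 2. For both genes the members passed 1.5-fold in set 2 alone.

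Receptors for growth factors showed 2 of 6 measured genes called higher, Il2ra and Il7r, and 0 lower. Il7r, the IL-7 receptor alpha chain needed for thymocyte survival, stood at 31.2 and 46.9 CPM in members against 16.5 and 19.4 CPM (mean log2 1.10). Kit was level between the classes, at a mean log2 ratio of 0.05. The signal transducer Stat3 was called higher, at 65.6 and 87.8 CPM against 29.5 and 37.7 CPM.

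Of the 3 genes used here to gate T-committing cells, Khdc1a and Fam169b were called higher in members, and Fbp1 had too few UMIs to be measured (23.1 and 6.95 CPM against 6.95 and 4.36 CPM). Khdc1a stood at 107 and 39.5 CPM against 55.6 and 7.74 CPM, and Fam169b at 22.6 and 21.7 CPM against 8.69 and 2.42 CPM. Gzma, a granzyme of cytotoxic cells that fetal thymocytes also express, stood at 514.5 CPM in set 1 and 81.2 CPM in set 2 of the members. In Tcf7-low barcodes it stood at 79.9 and 5.32 CPM. The sets differed more than 6-fold in members, and 47 members of set 1 but 23 of set 2 had a Gzma UMI. Of 5 measured markers of natural killer cells and ILC1, Gzma was called higher and Ccl4, a chemokine, lower, at 15.1 and 9.99 CPM against 33.9 and 29.0 CPM. The whole list summed to 1134 and 521 CPM in members against 697 and 412 CPM, with Eomes, Ncr1, Prf1, Klre1 and Klra7 at 0 in members. The mean log2 ratio of Gzma, 3.31, came down to 0.87 with per-cell CPM averaged and 0.51 with barcodes thinned before the gates.

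Fgf3, a fibroblast growth factor, stood at 56.5 and 26.1 CPM in members against 13.9 and 1.94 CPM in Tcf7-low barcodes (mean log2 2.89). The other genes among the 10 highest by the naming rule were Prkca (1.67), a protein kinase C, Scin (1.27), an actin-severing protein, Dpp4 (1.19), the peptidase CD26, and Emilin2 (1.16), an extracellular matrix protein, in mean log2 ratio. Cdkn1a, the cell cycle inhibitor p21, was the 1 of 15 survival and cycle genes called higher, at 69.4 and 43.0 CPM against 38.2 and 21.8 CPM. Cpa3, a protease of mast cells that early progenitors also express, stood at 390 and 323 CPM against 180 and 179 CPM, and its mean log2 ratio went from 0.99 to -0.43 with per-cell CPM averaged.

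Genes lower in members included stem and progenitor regulators outside the rule, of which 2 of 10 measured were called lower (Hoxa7 and Egfl7) and 0 higher, at a median of 0.00. Egfl7, a secreted protein of stem cells and endothelium, stood at 62.4 and 61.7 CPM in members against 98.2 and 171 CPM. Hoxa7, a homeobox factor of stem cells, stood at 18.8 and 24.3 CPM against 28.7 and 48.4 CPM. Under the alternatives the mean log2 ratio ranged from -1.22 to -0.09 for Egfl7 and from -1.69 to -0.18 for Hoxa7. Hmga2 (chr10:120361275-120476469), a chromatin protein of fetal stem cells, was the 1 of 6 measured fetal genes called lower, at 28.5 and 22.6 CPM against 82.5 and 57.6 CPM. A single member gave 35.8% of its UMIs in set 1, and another 28.8% in set 2.

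Several progenitor genes had too few UMIs in set 1 to be measured, so only their levels and ratios are given. Lmo2, a partner of Lyl1, stood at 4.30 and 10.4 CPM in members against 14.8 and 53.7 CPM in Tcf7-low barcodes. Flt3 stood at 9.56 and 32.9 CPM in the Tcf7-low class, each above the members of the same set. Hoxa9, chosen after its values were seen, stood at 7.53 and 9.99 CPM in members against 24.3 and 55.2 CPM. In Lmo2, Flt3 and Hoxa9 the interval of the ratio lay below 0 on the log2 scale in both sets. Of the gate genes, Cd34 stood at 95.7 and 94.7 CPM against 167 and 207 CPM and Mef2c at 110 and 109 CPM against 209 and 200 CPM. Spi1, at 138 and 150 CPM against 149 and 142 CPM, was level, and Lyl1 stood at 157 and 153 CPM against 131 and 111 CPM.

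Not all progenitor genes were lower in members. Hhex, Mycn, Nfe2, Erg, Sox4 and Kit each had a mean log2 ratio within 0.22 of 0, and Mycn, a proliferation factor, stood at 51.6 and 101 CPM against 57.3 and 84.2 CPM. Among myeloid genes 1 of 9 measured, the granule protease gene Prtn3, was called lower (52.2 and 30.9 CPM against 80.8 and 53.2 CPM) and 0 higher, with a median of 0.03.

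Among mast cell and basophil markers 3 of 5 measured were called lower (Cma1, Mcpt4 and Hdc, the 3 lowest of all genes called) and 1 higher (Cpa3). Their summed level was 475 and 436 CPM in members against 606 and 1215 CPM in Tcf7-low barcodes, and Fcer1a, Mcpt4, Cma1, Tpsab1 and Prss34 were at 0 in members. Cma1 and Mcpt4, the mast cell chymases, had 0 UMIs in members and stood at 151 and 364 CPM (Cma1) and 122 and 327 CPM (Mcpt4) in the Tcf7-low class. They came from 3 Tcf7-low barcodes of set 1, 1 of them with 312 of 314 UMIs, and 9 of set 2. Hdc, the histamine-forming enzyme, stood at 2.15 and 2.61 CPM in members against 47.8 and 43.1 CPM. Without the barcodes that held Cma1 or Mcpt4, the mean log2 ratio of Hdc was 0.030. The counts of called genes were then 47 higher and 22 lower, 43 and 19 of them shared with the first calls. S100a4 and S100a6, calcium-binding proteins, were lower in members in both sets, with mean log2 ratios of -1.51 and -1.30, and Car2, a carbonic anhydrase, with -1.41. Igsf8, a tetraspanin partner, had -1.34. Of these, Car2 came to 0.036 when barcodes were thinned before the gates.

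**Figure D3:**
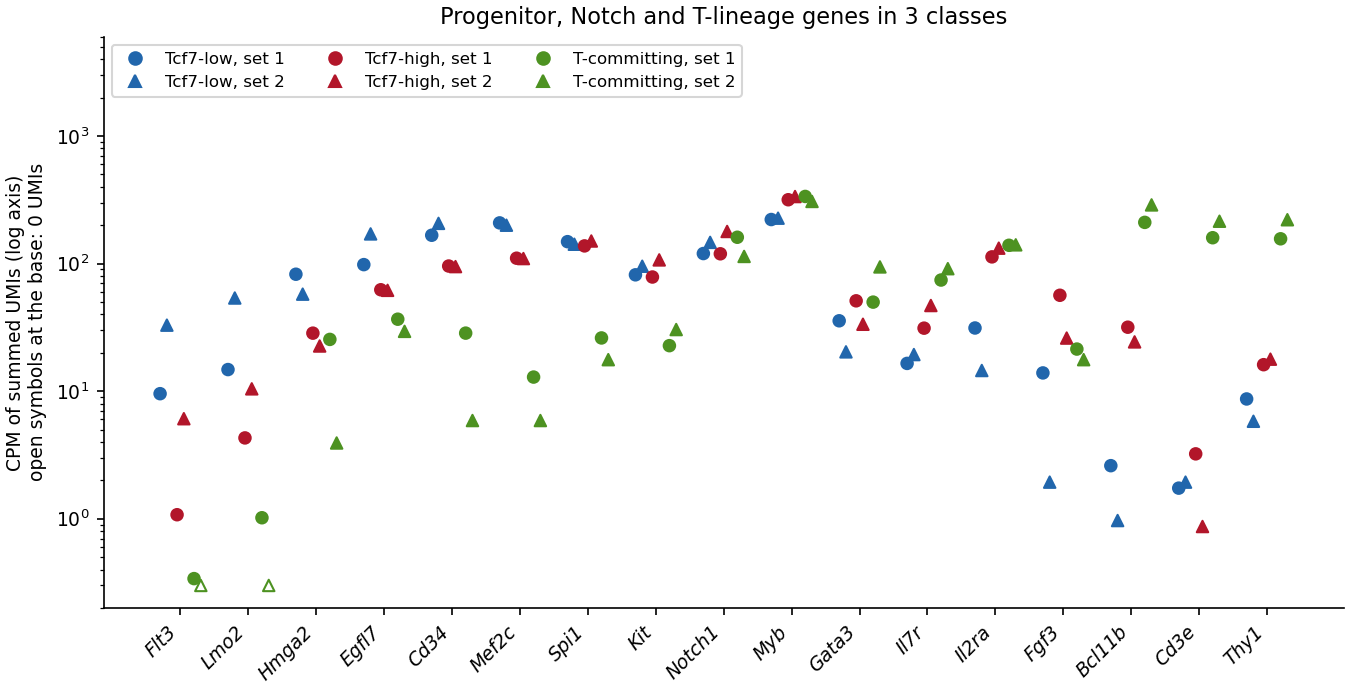
CPM from summed UMIs (y, log axis) of 17 genes in Tcf7-low progenitors, Tcf7-high progenitors and T-committing cells, with circles for set 1 and triangles for set 2. Open symbols at the base mark 0 UMIs. From left to right the genes pass from those highest in Tcf7-low barcodes (Flt3, Lmo2, Hmga2, Egfl7), through those level in all (Notch1), to those highest in T-committing cells (Bcl11b, Cd3e, Thy1).

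Sequence upstream of these genes was read from RefSeq windows (GRCm38.p6) of 250 bases before each start, since TCF-1 and the Notch factor RBPJ bind short known cores. Both strands were searched for CTTTGA (the TCF/LEF core) and TGGGAA (the RBPJ core), with 40 of the 51 higher genes and 21 of the 26 lower genes having a window. The TCF/LEF core was in 13.8% of all 32851 windows, in 10.0% of the 5788 windows of measured genes, in 3 of 53 windows of higher genes (5.66%) and in 6 of 27 of lower genes (22.2%). The RBPJ core was in 21.6% of all windows, in 19.6% of those of measured genes, in 10 of 53 of higher genes (18.9%) and in 6 of 27 of lower genes (22.2%). Windows of Bcl11b, Il2ra, Fgf3 and Egfl7 are printed 5′ to 3′ on the gene's strand, with cores in capitals. They are examples, and genes with larger differences than Egfl7 are not printed. Of other genes read, Gzma, Hmga2 and Prkca held neither core, while Dpp4 and an Emilin2 window held an RBPJ core. The printed windows of the 2 leading T-lineage genes differ, Bcl11b with a TCF/LEF core and Il2ra with neither. That of Egfl7, lower in members, holds both side by side.
Bcl11b (chr12:108003415-108003664, minus strand): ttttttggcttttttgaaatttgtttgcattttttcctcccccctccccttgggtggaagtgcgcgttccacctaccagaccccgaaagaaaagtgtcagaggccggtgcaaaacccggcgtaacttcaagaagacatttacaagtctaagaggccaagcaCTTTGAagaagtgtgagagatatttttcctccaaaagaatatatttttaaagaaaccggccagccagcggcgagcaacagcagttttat
Il2ra (chr2:11642542-11642791, plus strand): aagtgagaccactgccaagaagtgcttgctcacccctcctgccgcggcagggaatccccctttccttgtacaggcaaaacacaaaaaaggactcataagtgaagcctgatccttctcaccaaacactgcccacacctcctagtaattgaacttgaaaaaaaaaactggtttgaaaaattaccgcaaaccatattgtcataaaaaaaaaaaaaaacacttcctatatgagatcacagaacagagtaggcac
Fgf3 (chr7:144838362-144838611, plus strand): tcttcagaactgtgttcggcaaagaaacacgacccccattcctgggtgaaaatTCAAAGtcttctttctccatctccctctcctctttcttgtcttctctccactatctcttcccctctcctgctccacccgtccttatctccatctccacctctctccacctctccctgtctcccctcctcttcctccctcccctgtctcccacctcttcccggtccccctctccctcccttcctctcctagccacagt
Egfl7 (chr2:26580833-26581082, plus strand): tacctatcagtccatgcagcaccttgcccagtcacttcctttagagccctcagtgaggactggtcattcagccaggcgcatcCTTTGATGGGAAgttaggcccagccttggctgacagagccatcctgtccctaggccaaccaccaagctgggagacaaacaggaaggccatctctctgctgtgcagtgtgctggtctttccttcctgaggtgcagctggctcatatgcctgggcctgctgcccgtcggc
The core of Bcl11b begins 89 bases before the start, and that of Fgf3, on the opposite strand, 197 bases before it. In this Egfl7 window, 1 of 3 for the gene, the TCF/LEF core begins 168 bases and the RBPJ core 162 bases before the start, without overlap. The other Egfl7 windows held neither core. A match is a description of the letters and no evidence of binding.

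Within the progenitor gate, levels were also read over ranges of Tcf7 in each barcode, as a description. Gata3 stood at 35.6 and 20.3 CPM in Tcf7-low barcodes, at 39.6 and 26.4 CPM in members of 150 to 300 CPM of Tcf7, and at 53.4 and 29.9 CPM in members of 300 to 600 CPM. In the 9 and 8 members over 600 CPM it stood at 125 and 142 CPM. Gata3 was thus nearly level over most of the members and high in the few with the highest Tcf7 CPM, where it rested on 18 and 16 UMIs. Shallow barcodes were among these few, such as those of 858, 1112 and 1536 UMIs in set 1 and of 1470 UMIs in set 2. In such barcodes 1 or 2 Tcf7 UMIs are enough to pass 600 CPM. Bcl11b stood at 25.5 and 15.6 CPM, 32.0 and 35.4 CPM, and 76.5 and 35.4 CPM over the same ranges of members. Il2ra stood at 112 and 94.1 CPM in the lowest range, 125 and 177 CPM in the middle, and 62.6 and 204 CPM at the top, so the sets parted there. Notch1 went from 85.8 and 165 CPM to 188 and 292 CPM between the lowest and the highest range.

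Hmga2 and the gate gene Cd34 ran the other way over these ranges, and not all other progenitor genes did so. Hmga2 stood at 44.3 and 29.6 CPM in members of 150 to 300 CPM, 9.15 and 14.4 CPM in those of 300 to 600 CPM, and 0 and 8.86 CPM above that. Cd34 went from 109 CPM in both sets to 79.3 and 79.7 CPM and then 76.5 and 53.2 CPM. Spi1 stood at 124 and 150 CPM in the lowest range of members and 188 and 221 CPM in the highest, and Kit at 75.4 and 103 CPM and then 83.5 and 88.6 CPM. Runx1 was nearly level in set 1 (190.5, 201 and 209 CPM) and higher at the top in set 2 (246.5, 280 and 434 CPM). The highest range held 143738 and 112886 UMIs in all, so its intervals are wide.

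**Figure D4:**
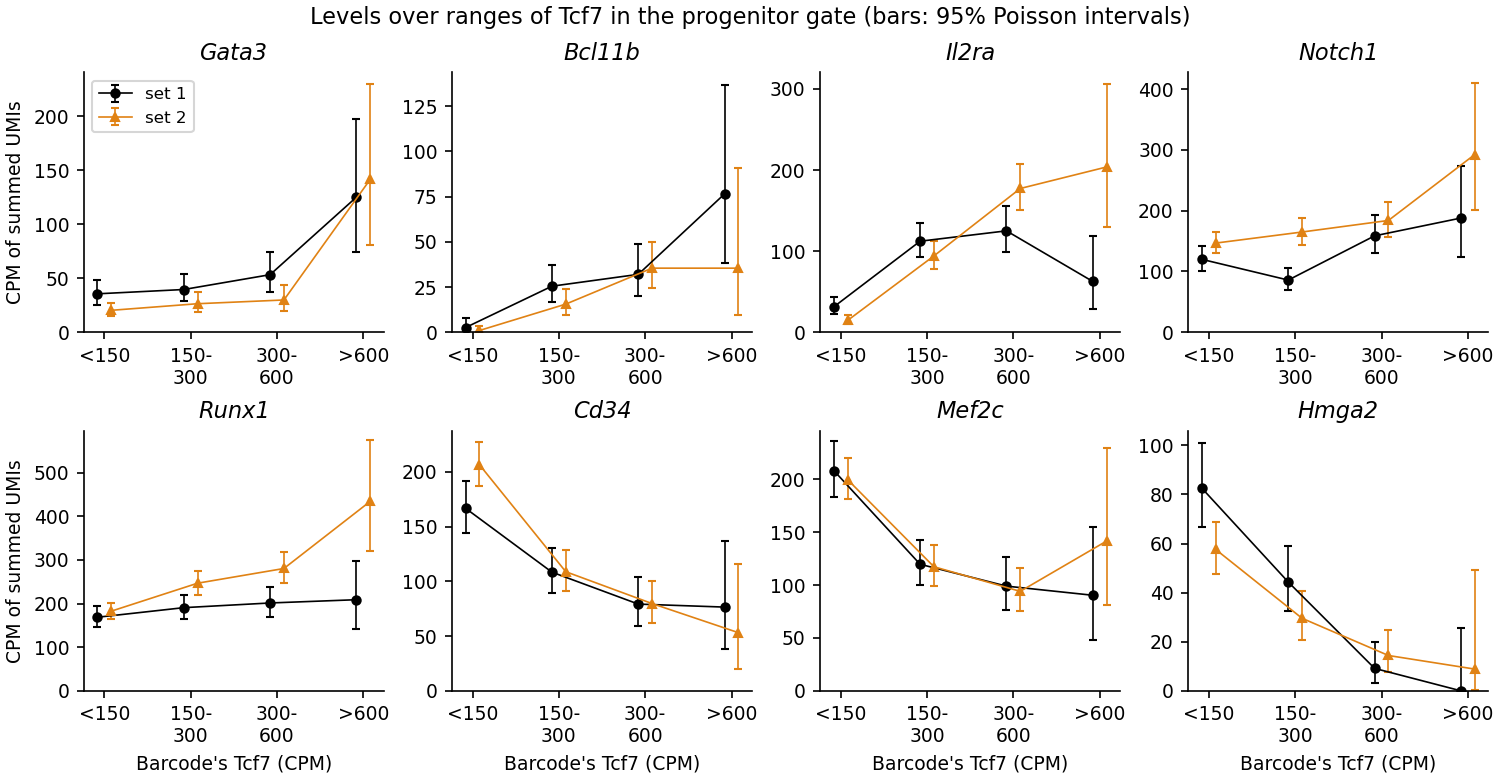
CPM of summed UMIs (y, linear) of 8 genes over 4 ranges of the barcode's own Tcf7 level (x, CPM) in the progenitor gate, with set 1 as circles and set 2 as triangles and bars for 95% Poisson intervals. The range under 150 CPM is the Tcf7-low class. Gata3 is high in the range over 600 CPM, and Cd34, Mef2c and Hmga2 are highest in the Tcf7-low class, with Mef2c of set 2 higher again over 600 CPM than at 300 to 600 CPM.

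Shares of cells with a UMI were read after thinning each barcode to 2735 UMIs, which kept 167 members and left out 5, against 117 kept and 27 left out in the Tcf7-low class. Il2ra was then seen in 21.0% of members (16.7% in set 1 and 24.2% in set 2) and in 5.98% of Tcf7-low barcodes. Mast- or basophil-like barcodes (at least 10 UMIs of Gata2, Ms4a2 and Fcer1a), used as a reference, gave 7.69% at the same depth (26 barcodes, median 9990 UMIs before thinning, against 23671 in members). That reference is 2 barcodes of 26, and the Tcf7-low share was 11.1% in set 1 and 2.78% in set 2. Without thinning, 58.1% of members had an Il2ra UMI. Bcl11b was seen in 3.59% of thinned members and in 0 of 117 Tcf7-low barcodes, which at this depth allows a share of barcodes with a UMI of up to 2.56% (3 counts). Without thinning 16.3% of members and 4 of 144 Tcf7-low barcodes (2.78%) had a Bcl11b UMI. Gzma was seen in 30.6% of thinned members of set 1 and 8.42% of set 2, against 4 of 16 and 2 of 10 mast- or basophil-like barcodes. Its share was thus below the reference in set 2 and close to it in set 1, and neither is read as above background. Thinned Tcf7-low barcodes held Gzma in 7 of 45 in set 1 and 0 of 72 in set 2. Both shares lie below the reference, so it does not settle the background of Gzma.

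Co-detection was read among members for the T-lineage genes, since the gate itself asks for progenitor genes. Bcl11b was in 22 of the 100 members with Il2ra and in 8.33% of those without it. These shares are unthinned and members of more UMIs show more of each gene. Thinned to 2735 UMIs, Bcl11b was seen in 5.71% of members with Il2ra and 3.03% of those without, or 2 of 35 in the first case. The sets lay on opposite sides. In set 1 it was seen in 0 of 12 with Il2ra and 6.67% of those without, and in set 2 in 2 of 23 and 0%.

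The reporters followed their loci in part. The hCD2 transcript of the Gata3 reporter had 49 and 53 UMIs in members against 10 and 16 in Tcf7-low barcodes (mean log2 ratio of CPM 1.59) and was among the genes called higher. The tagBFP transcript of the Id2 reporter stood at 34.9 and 56.0 CPM against 93.8 and 47.4 CPM, and Id2 itself, an inhibitor of E proteins that innate cells need, at 13.4 and 13.9 CPM against 33.9 and 19.8 CPM. The TdTomato transcript of the Bcl11b reporter had 0 and 3 UMIs in members, beside 59 and 56 UMIs of Bcl11b. It was sparse beside Bcl11b in T-committing cells (gated below) too, with 22 and 11 UMIs beside 620 and 294.

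The members were next compared with T-committing cells, a class gated here by Cd3g at or above 400 CPM, Tcf7 at or above 150 CPM, at least 3 UMIs of Fbp1, Khdc1a and Fam169b, at most 1 UMI of Cd8b1, and the same limits on Mpo, mast and innate genes. It held 79 barcodes in set 1 and 33 in set 2, and the Spi1 group of genes was not used for it. Of 6022 genes measured, 217 were higher in members (3.60%) and 164 lower (2.72%), with a median of 0.01 on the log2 scale. Genes near 0 in 1 class, such as Lef1, were measured only through the other class. Members and T-committing cells had nearly the same Il2ra, at 113 and 132 CPM against 139 and 140 CPM, and like Tcf7 levels by the gates. Gzma stood far lower in members, at 514.5 and 81.2 CPM against 2127 and 1886 CPM. The T-committing barcodes were deeper, with medians of 39260 and 25114 UMIs.

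The gates split these classes on Cd3g, so levels of the T-cell receptor complex follow from the choice and are given as a description. Of 11 T-cell receptor signalling genes measured, 6 were lower in members and 0 higher (median -1.30), some of them measured only through their UMIs in T-committing cells. Cd3d and Cd3e, which build the signalling complex of the receptor, were nearly absent from members, with Cd3d at 4.84 and 0.869 CPM against 118 and 490 CPM. Cd3e stood at 3.23 and 0.869 CPM against 160 and 215 CPM. Lck and Lat, a kinase and an adaptor of receptor signalling, were well expressed in members, with Lck at 174 and 190 CPM against 289 and 291 CPM. Lat stood at 109 and 97.8 CPM against 224 and 287 CPM. Against Tcf7-low barcodes 0 of 6 measured genes of this list were called, at a median of -0.003. Thy1, a surface marker of T cells, stood at 16.1 and 17.8 CPM against 156 and 221 CPM. Rag1, the recombinase subunit, had 4 and 3 UMIs in members against 113 and 34 UMIs.

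Of 16 measured T-lineage regulators, 4 were lower in members (Bcl11b, Tcf12, Lef1 and Ets1) and 0 higher, with a median of -0.03. Bcl11b stood at 31.7 and 24.3 CPM against 210 and 288 CPM, so that members were intermediate between Tcf7-low and T-committing barcodes in both sets. Lef1, the close relative of Tcf7, had 1 and 0 UMIs in members against 38.0 and 134 CPM. It was thus measured only through its UMIs in T-committing cells and could only be called lower. Gata3, Notch1, Runx1, Myb and Tcf3 were not called. The Notch pathway had 0 of 14 measured genes called, at a median of 0.25.

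Only members were gated on the Spi1 group, which summed to 626 and 662 CPM against 187 and 102 CPM in T-committing cells. How far other progenitor or myeloid genes follow from that choice was not tested. Progenitor regulators outside the rule were higher in members in 4 of 7 measured genes (Hhex, Mycn, Nfe2 and Egfl7) and lower in 0, with a median of 0.92. Hhex, a homeobox factor of early lymphoid progenitors, stood at 98.9 and 138 CPM against 31.2 and 23.5 CPM. Kit stood at 78.5 and 107 CPM against 22.7 and 30.4 CPM, while Il7r was lower in members, at 31.2 and 46.9 CPM against 74.3 and 91.2 CPM. Of 9 measured myeloid genes 4 were higher in members and 0 lower, though the summed list lay on opposite sides in the sets, at 5007 against 7651 CPM in set 1 and 5730 against 2936 CPM in set 2. Tyrobp, a signalling adaptor of myeloid and natural killer cells, stood at 258 and 387 CPM against 64.5 and 12.8 CPM, and Cebpb, a myeloid transcription factor, at 88.2 and 108 CPM against 35.0 and 38.3 CPM. Prtn3 led the named genes at a mean log2 ratio of 4.72, followed by Spns2, at 37.1 and 37.8 CPM against 1.36 and 0 CPM, and Bex6 (3.42). Angpt1, a growth factor of stem cells, had a ratio of 2.54. Ccnd1, a cyclin of the G1 phase, stood at 29.6 and 24.8 CPM against 1.70 and 4.90 CPM. The globin gene Hbb-bt stood at 754 and 614 CPM against 351 and 89.3 CPM, and the epithelial chemokine Ccl25 at 23.1 and 20.4 CPM against 10.9 and 11.8 CPM. Both are markers of other cell types, each the 1 measured gene of its list, and their part in the differences was not tested.

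The 10 lowest genes by the naming rule were Cd3d, Cd3e, Lef1, Rasgrp1, Mcub, Tubb2b, Cd247, Nebl, Skap1 and Thy1. Rasgrp1, an activator of Ras below the T-cell receptor, stood at 2.69 and 1.74 CPM against 23.8 and 128 CPM, and Skap1, an adaptor of T-cell adhesion, at 5.91 and 15.2 CPM against 57.0 and 277 CPM. Bcl2, the survival factor, was also lower in members, at 19.9 and 19.6 CPM against 79.4 and 167 CPM.

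Members had less of the mitotic programme than T-committing cells. Of 58 measured G2/M genes, 24 were lower in members and 0 higher (median -0.86), and of 45 S phase genes 1 was lower, Rrm2. Top2a, the topoisomerase of dividing cells, stood at 227 and 159 CPM against 361 and 599 CPM. After thinning to 2735 UMIs the median G2/M sum per cell was 17 UMIs in set 1 and 7 in set 2 of the members, against 24 and 22 in T-committing cells. The S phase sums were 15 and 8 against 16 and 14, so the classes were close in S phase in set 1 and further apart in set 2. Against Tcf7-low barcodes 0 of 45 S phase and 0 of 56 G2/M genes were called, with medians of -0.24 and -0.04. Of 18 immediate early and heat shock genes, which are known to respond to the handling of cells, 7 were higher in members than in T-committing cells. Jun stood at 449 and 570 CPM against 165 and 158 CPM and Hspa1a at 218 and 178 CPM against 33.9 and 45.1 CPM. Against Tcf7-low barcodes 0 of 19 were called, with a median of -0.01. Their part in the differences from T-committing cells was not tested.

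Last, members of set 2 were set against members of set 1. No label ties a set to a library or a stage, so library and stage cannot be told apart here. At 50 UMIs over both sets and a 2-fold rule, 116 of 6683 genes were higher in set 2 (1.74%) and 74 lower (1.11%), with a median of -0.04. With median-of-ratios scaling the split was 168 higher and 46 lower. Igf2bp1 (chr11:95957163-96005940), an RNA-binding protein of the fetal stem cell programme, stood at 63.4 CPM in set 1 and 3.91 CPM in set 2. In Tcf7-low barcodes it stood at 61.7 and 2.90 CPM, so the Tcf7-low barcodes differed between the sets alike. The other fetal genes measured were not called, among them Lin28b at 28.5 and 18.2 CPM and Igf2bp3 at 92.5 and 76.0 CPM.

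Cell cycle genes were lower in set 2, with 9 of 45 measured S phase genes and 2 of 56 G2/M genes called and medians of -0.62 and -0.48. Interferon response genes went the other way, with 7 of 16 measured higher in set 2 and 0 lower (median 0.70). Ifi27l2a stood at 4.30 and 38.2 CPM and Irf7, the factor that sustains the response, at 6.45 and 17.4 CPM. The summed interferon list stood at 672 and 1080 CPM in members and 531 and 1222 CPM in Tcf7-low barcodes, so both classes were higher in set 2. Satb1, a chromatin organiser of thymocytes, stood at 46.8 CPM in set 1 and 116 CPM in set 2, and Ets1 at 8.60 and 17.4 CPM. Granzyme genes were lower in set 2, with Gzmb at 79.0 and 16.1 CPM and Gzma at the values given above. The 5 highest in set 2 by the naming rule were Chd3, Ifi27l2a, Ly6d, Prss2 and Tns1, and the 5 lowest Igf2bp1, Gzma, Akr1c13, Gzmb and Mt1. Ly6d, a surface antigen of lymphoid progenitors, stood at 37.1 and 163 CPM, and 1 member gave 47.8% of its UMIs in set 1. Of Prss2, a trypsinogen, 1 member gave 76.3% of the UMIs in set 2.

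**Figure D5:**
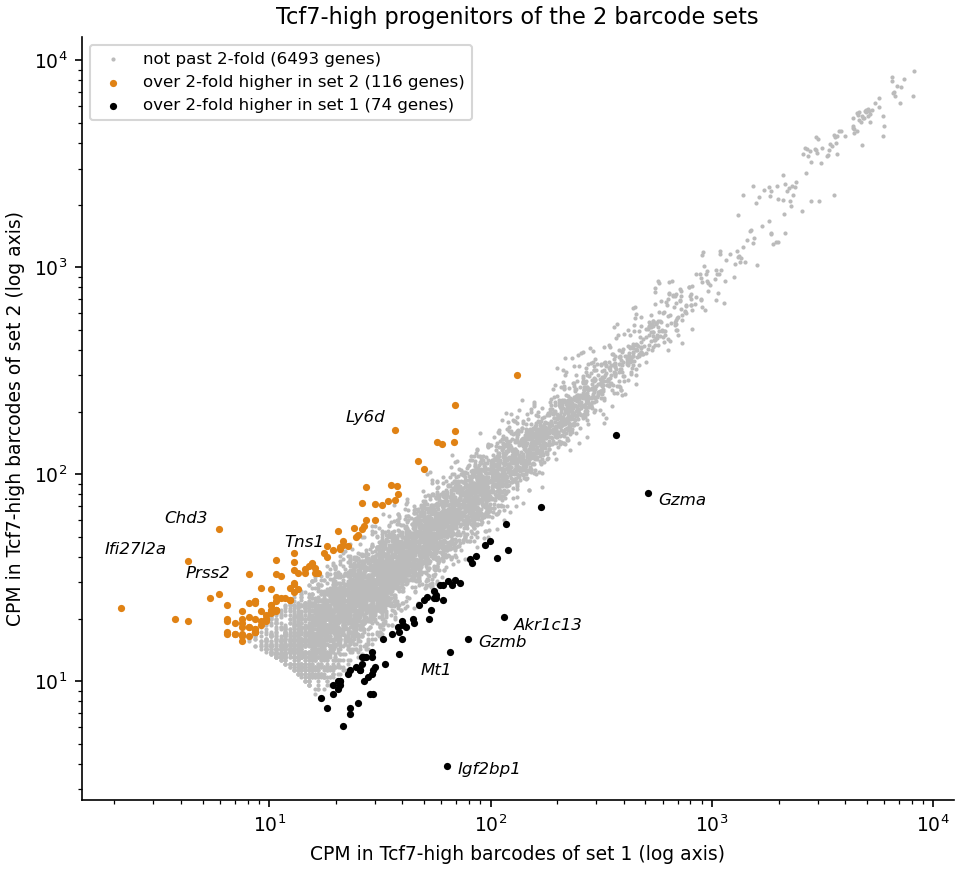
CPM of each measured gene in Tcf7-high members of set 1 (x) and set 2 (y), both log axes, 1 barcode set per axis. The 116 genes over 2-fold higher in set 2 lie above the diagonal band and the 74 lower below it, with Igf2bp1 at 63.4 and 3.91 CPM lowest of those labelled.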

How the data were processed

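Per the labels' protocols, DN1 cells went through a lysis to nuclei and a 10x 3' v3 kit, which leaves unsettled if the transcripts are those of whole cells. The authors deposited whole-number UMI counts for 22032 genes and 6057 barcodes, for which the submitters' processing notes list STAR, Cell Ranger 3.0.2 and the GRCm38 build. How barcodes were called as cells is not given in the sources used here. Both the members and gene lists were chosen with earlier results of these data known.

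UMIs were summed per class and barcode set and scaled to CPM, and log2 ratios within each set were averaged with equal weight. A class at 0 was set to a floor of 3 counts per set. Ratios have conditional exact, levels exact Poisson and shares Clopper-Pearson intervals. Genes named in the text were drawn by a fixed rule, of which not all are printed: in each comparison of classes the 10 highest and 10 lowest called genes of at least 30 CPM (5 and 5 between sets), all called members of the lists, the 4 most abundant of each list, and the gate genes. Fam169b, Flt3, Lmo2, Ccr9, Fbp1 and Rag1 are named as cell type markers, and other genes after their values were seen. Scrublet in scanpy 1.11.5, run per set, marked 0.466% of set 1 (a low rate that leaves doublets possible) and 2.76% of set 2, and these were kept in the main values. Gene positions are those of GENCODE M21. Functions were tested on simulated data. Calculations used scipy 1.17.1 and numpy 2.4.6 under Python 3.11.15. Alternatives covered cell filters, gates, scaling, weights, depth and call rules. Genes of the T-cell receptor chains and 1 locus with its reporter are not reported here.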

Additional observations from a re-analysis of the deposited data

Results flagged for a closer look

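Genes whose ratio of Tcf7-high to Tcf7-low progenitors passed 1.5-fold in opposite directions in the 2 barcode sets stood out, and the difference between the sets was not tested. The TGF-beta receptor gene Tgfbr1 had log2 ratios of -0.92 in set 1 and 0.69 in set 2, a difference of 1.61. Mical1 had -0.60 and 0.86 (1.46), Fam193b -0.79 and 0.61 (1.39), and Clk4 -0.69 and 0.65 (1.34). Gemin5 went the other way, with 0.68 and -0.71 (a difference of -1.40), as did Hbs1l, with 0.71 and -0.70 (-1.40).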

How the results depend on the processing

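No paired analysis was possible because each stage has 1 library and no label ties barcodes to a stage. Alternatives were run 1 at a time, and 2 of them (leaving out barcodes under 10000 UMIs, or those with Cma1 or Mcpt4) were chosen after seeing the data. The number of members came to 88 with Tcf7 at 300 CPM and 80 with the progenitor genes at 700 CPM. Genes higher and lower against Tcf7-low barcodes came to 26 and 52 at 700 CPM (8 and 5 of them shared with the first calls). They came to 106 and 73 with UMIs pooled over sets and 116 and 79 with per-cell CPM averaged (30 and 14 shared). At 200 UMIs they were 6 and 2 and at 2-fold 14 and 7. With barcodes thinned before the gates they were 6 and 6 (3 and 2 shared). With Tcf7 at 300 CPM 47 and 38 were called, 21 and 13 of them shared. Without doublets 53 and 30 were called, 48 and 25 of them shared. Against T-committing cells, 136 were higher with Tcf7 at 300 CPM, 256 lower at 700 CPM, and 437 and 339 were called pooled, 64 and 47 at 200 UMIs, and 77 and 52 at 2-fold. Thinning before the gates left 14 and 2 T-committing barcodes and was not run for them. Between the sets, 61 were higher and 73 lower at 700 CPM, 30 and 5 of them shared with the first calls. With median-of-ratios scaling 46 were lower, all of them shared. At 200 UMIs 18 and 14 were called, and with per-cell CPM averaged 216 and 188 (96 and 65 shared). The Il2ra share of members was 60.2% when thinned to the median depth and 58.1% unthinned. Of single genes, 4 turned direction against Tcf7-low barcodes, namely Cpa3 (-0.43, per-cell CPM), Car2 (0.036) and Ccl4 (0.068, both thinned before the gates) and Hdc (0.030, without Cma1 or Mcpt4 barcodes), and between the sets Prss2 did (-1.30 at 700 CPM and -0.29 with no innate limit). Of the values for single genes against Tcf7-low barcodes, 300 stayed alike, 60 moved and 4 turned. Without turning, Dtx1 came down to 0.05, Prtn3 to -0.08, Egfl7 to -0.09, Scin to 0.17 and Hoxa7 to -0.18 at their smallest. No setting run turned any of the 20 genes (10 highest and 10 lowest) against T-committing cells, and the other genes named there had no alternative run. The cause of these shifts was not tested, except that stricter UMI and fold limits call fewer genes by construction.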
